A study of Mus musculus with 4 samples.

Results

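The 36 genes described here mark blood and lymphatic endothelium, the cells that line vessels, and were chosen by name: VEGF receptors, the angiopoietin and apelin systems, junction and surface proteins, secreted and signalling proteins, transcription factors, selectins, and genes of sinusoidal and lymphatic vessels. All 36 had at least 1 probe, 43 probes in total, among 21151 genes whose probes could be named and measured in both groups. The RNA came from thymospheres, cell clusters grown from digested mouse thymus in plates that hinder attachment, in a medium with B27 supplement, hydrocortisone, insulin, EGF and bFGF. Adult spheres came from C57Bl6/N mice of 5 to 6 weeks and embryonic spheres from C57Bl6/N embryos at embryonic day 14.5. Both were collected after 7 days of culture, and each group had 2 samples, 1 array each, on 1 slide. The labels trace the spheres to stem cells of thymic epithelium, yet digests were plated with no sort named, and the RNA is that of whole spheres. Array position on the slide and group cannot be told apart. Which arrays are biological and which technical repeats is not stated in the labels, so the p-values reflect the spread among these 4 arrays alone, and that spread may be technical.

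Endothelial cells are joined by adherens junctions built on VE-cadherin and by tight junctions built on claudins. Growth of vessels is driven by VEGF through its receptor tyrosine kinases, and the angiopoietin ligands tune vessel stability through the Tie receptors. ETS family factors such as Erg and Fli1 switch on much of this programme. In the thymus, vessels carry progenitors in and mature T cells out. Some of the genes are also active in haematopoietic cells, macrophages or fibroblasts.

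The arrays differed in how many spots rose above background, 71.6% and 49.6% in adult and 48.3% and 35.7% in embryonic spheres, and adult array 2 had 2756 spots marked as outliers, against 95 to 185 on the others. Levels are given as log2 of the processed signal relative to the array's 75th percentile, so that 0 is that percentile, always in the order adult 1, adult 2, embryonic 1, embryonic 2. Probes bind with different strength, so levels of different genes cannot be ranked. Differences are embryonic minus adult on the log2 scale, from limma, with Benjamini-Hochberg adjusted p over 13667 genes. The median of the tested genes was itself at 0.79 on this scale, so every difference can be read against that value. The number of arrays limits the precision.

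Esam, Ecscr and Icam2, genes of the endothelial surface, read lower on both embryonic arrays than on either adult array, by log2 differences of -5.53 to -3.37, and were dim on 1 or both embryonic arrays. The VEGF receptor genes Kdr and Flt1, and Cd34, were well above background in both groups and were not called. Of the 36 genes, 23 were tested, because both arrays of 1 group or of both groups showed them well above background. Calls were made for 12 of them, and 53.7% of all tested genes were called. Of the 23, 10 were called lower in embryonic spheres (Esam, Ecscr, Icam2, Cdh5, Mmrn2, Cldn5, Emcn, Lyl1, Pdpn and Rasip1), where 17.5% of all tested genes were called lower. Angpt2 and Stab1 were called higher, where 36.2% of all tested genes were, and 11 were not called, although a missed threshold is no evidence of equal levels. The groups did not overlap for 20 of the 23 genes, and for 82.4% of all tested genes. All 12 calls kept their sign under every alternative that could be computed, and all 12 were lost when either adult array was left out, when no gene at all was called. Fewer cells of a type and less RNA per cell cannot be told apart in such bulk samples.

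The filter bears on these counts, since a gene that passes only through the adult arrays is already brighter there against background. Of the 23 tested genes, 12 passed in that way, and 9 of these were called lower while Angpt1, Apln and Pecam1 were not called. Over all 36 genes with no filter, the median difference was -1.01 and 26 differences lay below 0. The same values over all genes were 0.35 and 39.5%. Over 1380 genes of sensory receptors, which few cells outside sense organs use, they were -0.92 and 938 genes, near the endothelial values. Of 11 genes well above background on all 4 arrays, only Pdpn was called lower and only Angpt2 and Stab1 higher, beside 2.36% and 43.8% of all such genes. The median difference over these 11 genes was 0.20, against 0.97 over all such genes. Of the 10 genes called lower, 4 were dim on both embryonic arrays and 5 others on embryonic array 2 alone.

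**Figure D1:**
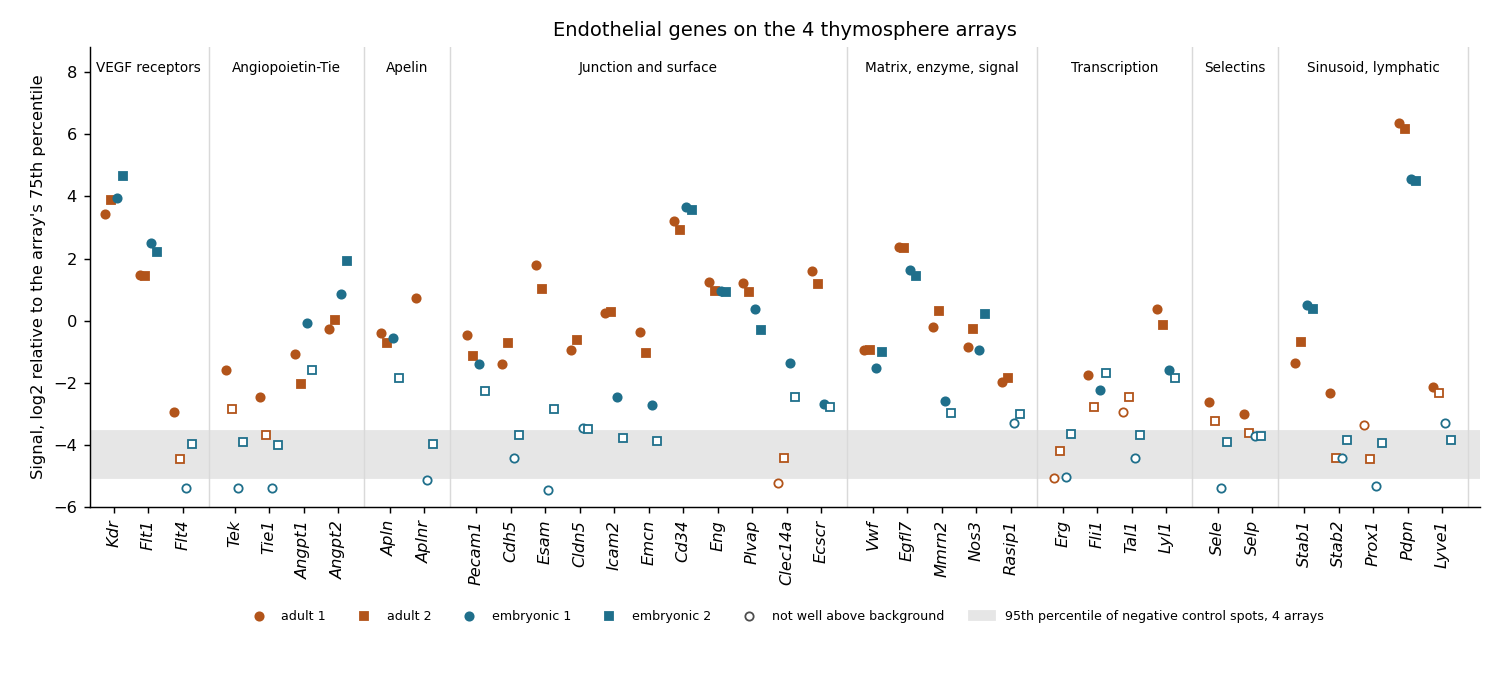
Signal of each of the 36 endothelial genes (columns, by role) on the 4 arrays (log2 relative to the array's 75th percentile). Filled points were well above background and open points were not, and the grey band spans the 95th percentile of the negative control spots, from -5.06 to -3.55. Adult points of Esam, Ecscr, Icam2 and Mmrn2 stand clear of the embryonic ones, whereas Kdr, Cd34 and Eng are filled in both groups.

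**Figure D2:**
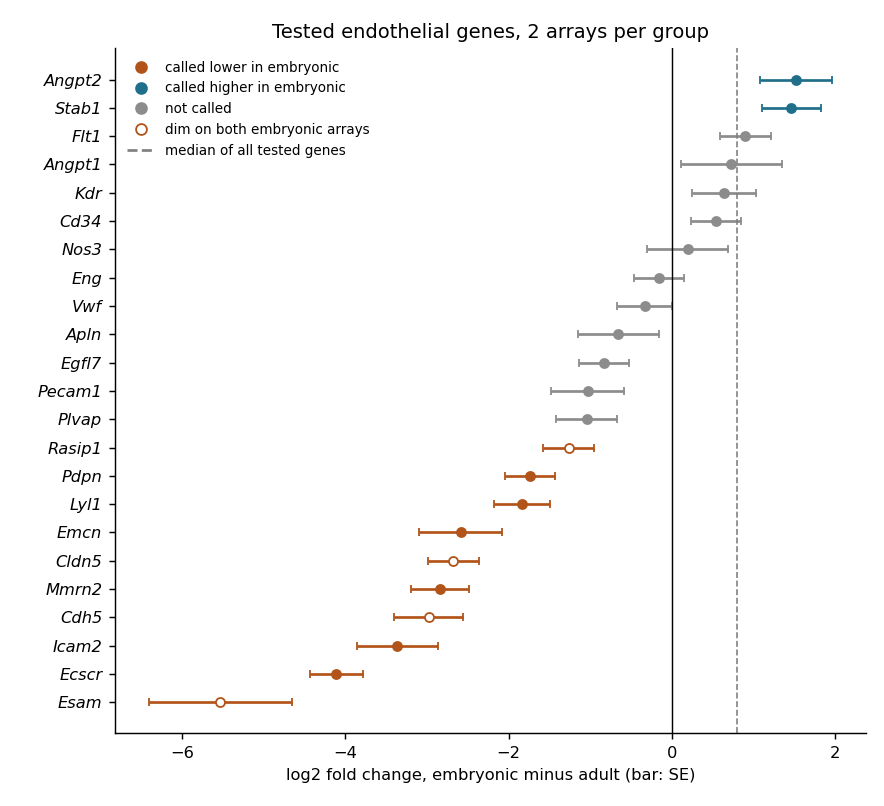
Difference of the 23 tested endothelial genes, embryonic minus adult (log2, bar: SE, 2 arrays per group), ordered by size. Esam at -5.53 is lowest and Angpt2 at 1.52 highest, and the dashed line marks the median of all tested genes, 0.79.

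Among the junction and surface genes, 6 of 10 tested were called lower and none higher, beside 17.5% and 36.2% of all tested genes. All 6 passed the filter only through the adult arrays. The 3 that passed the background mark on every array (Cd34, Eng and Plvap) were not called. Esam, an adhesion molecule of endothelial tight junctions, read 1.78, 1.01, -5.45 and -2.83. Both adult arrays were well above background and neither embryonic array was. The difference was -5.53 (SE 0.87, adjusted p = 0.00979), and since the embryonic side is only a bound, the adult level of Esam was at least 14.4-fold higher. Such a bound sets the adult mean against the lowest signal that still counts as well above background. It belongs to the scaling used, and over the alternatives the Esam difference came as near to 0 as -2.26.

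Ecscr, a surface protein that acts in endothelial migration, read 1.59, 1.17, -2.68 and -2.79. Its adult values agreed within 0.43 and lay far above both embryonic ones. The difference was -4.11 (SE 0.33, adjusted p = 0.00727). Icam2, a ligand for leukocyte integrins, read 0.23, 0.27, -2.45 and -3.77 and differed by -3.37 (SE 0.50, adjusted p = 0.00905). Both genes were well above background on embryonic array 1 and not on embryonic array 2, and their groups did not overlap.

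Cdh5, the gene of VE-cadherin, read -1.39, -0.73, -4.41 and -3.67. The difference was -2.98 (SE 0.42, adjusted p = 0.00876), a bound of at least 2.62-fold, and this call did not hold under normexp background correction (-0.70, adjusted p = 0.112). Cldn5, the claudin of endothelial tight junctions, read -0.93, -0.63, -3.44 and -3.47. It differed by -2.68 (SE 0.31, adjusted p = 0.00739), at least 3.19-fold, and was likewise lost under normexp (-0.71, adjusted p = 0.0987). Emcn, the mucin endomucin of capillaries and veins, read -0.37, -1.05, -2.71 and -3.89 and differed by -2.59 (SE 0.51, adjusted p = 0.0137). It was well above background on embryonic array 1 only, and its call was lost with no filter (adjusted p = 0.051) and under quantile normalization (adjusted p = 0.0565).

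The other surface genes did not pass the test. Pecam1, the adhesion molecule CD31, read -0.47, -1.14, -1.40 and -2.27, a difference of -1.03 (SE 0.44, adjusted p = 0.096). Plvap, which forms the diaphragms of fenestrae, read 1.22, 0.92, 0.37 and -0.32, a difference of -1.04 (SE 0.37, adjusted p = 0.0606). Both turned sign when arrays were centred on the median of all probes (0.16 and 0.14) and were called lower when the tested genes were centred (adjusted p = 0.0413 and 0.0247). Pecam1 was also called lower with outlier spots kept (-1.33, adjusted p = 0.0403). Plvap was called lower under further settings, among them quantile normalization (-1.47, adjusted p = 0.0237) and the deposited table (-1.35, adjusted p = 0.00697). Its second probe gave -0.48. Eng, a co-receptor for TGF-beta and BMP ligands, was nearly level on this scaling at 1.24, 0.97, 0.96 and 0.93 (difference -0.16). Its difference was -0.82 with the tested genes centred and 1.03 centred on all probes. Eng was called under no setting. Cd34, a sialomucin of vessels and blood progenitors, read 3.21, 2.93, 3.67 and 3.57 (difference 0.54, SE 0.31, adjusted p = 0.178). Its second probe gave 0.45.

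Clec14a, a C-type lectin of endothelium, ran the other way. Its probe read -5.24, -4.42, -1.36 and -2.46 and passed the background mark on embryonic array 1 alone, so it was not tested. With the filter set at the negative control spots it was called higher in embryonic spheres (2.92, SE 0.55, adjusted p = 0.0280). Its adult signals lay below the 95th percentile of those spots, so it entered there only through the embryonic arrays. The size of its difference thus rests on adult values at background. Its other probe was not well above background on any array, so the probes disagree.

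Of the secreted, enzyme and signalling genes all 5 were tested. Of these 2 were called lower and none higher, beside 17.5% and 36.2% of all tested genes. Mmrn2 and Rasip1, the 2 called, passed the filter only through the adult arrays. Mmrn2, a multimerin of the endothelial matrix, read -0.20, 0.32, -2.60 and -2.97. The difference was -2.84 (SE 0.35, adjusted p = 0.00757), and the gene was well above background on embryonic array 1 and not on array 2. Rasip1, a Ras-interacting protein needed for vessel lumens, read -1.96, -1.84, -3.31 and -3.02. It differed by -1.26 (SE 0.31, adjusted p = 0.0229), at least 1.47-fold, a call lost under 5 settings beside the left-out arrays and near 0 under quantile normalization (-0.031, adjusted p = 0.96).

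Egfl7, a secreted factor of growing vessels, read 2.37, 2.33, 1.62 and 1.43. Its groups did not overlap and it did not pass (-0.83, SE 0.30, adjusted p = 0.0636). It was called lower under 5 alternatives, among them quantile normalization (-1.59, adjusted p = 0.0132) and the deposited table (-1.48, adjusted p = 0.00407), and turned sign when centred on all probes (0.36). Vwf, the clotting protein stored in endothelial granules, read -0.94, -0.95, -1.53 and -1.01 (-0.33, SE 0.34, adjusted p = 0.421). Nos3, endothelial nitric oxide synthase, read -0.86, -0.27, -0.96 and 0.22, with overlapping groups. Its second probe read -1.64, -2.26, -4.70 and -3.22 and passed the background mark in adult spheres only, so its probes disagree.

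The promoters of 4 genes are shown: Emcn, Cldn5 and Rasip1, called lower, and Stab1, described below, called higher. The RefSeq table for GRCm38.p6 held 22 of the 36 genes, with 28 starts. The stretches are the 250 bases before the start, at chr3:137340828-137341077 (plus strand, Emcn), chr16:18776597-18776846 (plus, Cldn5), chr7:45627287-45627536 (plus, Rasip1) and chr14:31168642-31168891 (minus, Stab1). Capitals mark AGGAAG, a core that ETS factors bind, on either strand.
Emcn: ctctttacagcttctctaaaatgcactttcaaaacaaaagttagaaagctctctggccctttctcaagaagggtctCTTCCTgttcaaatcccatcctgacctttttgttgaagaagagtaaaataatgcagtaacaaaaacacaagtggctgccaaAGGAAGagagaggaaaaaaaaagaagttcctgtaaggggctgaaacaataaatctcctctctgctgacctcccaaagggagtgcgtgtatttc
Cldn5: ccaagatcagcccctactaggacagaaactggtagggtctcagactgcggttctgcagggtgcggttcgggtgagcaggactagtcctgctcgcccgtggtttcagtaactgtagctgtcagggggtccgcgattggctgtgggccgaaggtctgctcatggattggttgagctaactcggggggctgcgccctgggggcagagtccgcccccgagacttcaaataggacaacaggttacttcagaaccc
Rasip1: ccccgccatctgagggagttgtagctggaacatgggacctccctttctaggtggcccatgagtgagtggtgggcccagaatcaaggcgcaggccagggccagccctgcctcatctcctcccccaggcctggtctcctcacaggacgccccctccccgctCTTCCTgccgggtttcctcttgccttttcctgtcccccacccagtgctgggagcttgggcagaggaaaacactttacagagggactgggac
Stab1: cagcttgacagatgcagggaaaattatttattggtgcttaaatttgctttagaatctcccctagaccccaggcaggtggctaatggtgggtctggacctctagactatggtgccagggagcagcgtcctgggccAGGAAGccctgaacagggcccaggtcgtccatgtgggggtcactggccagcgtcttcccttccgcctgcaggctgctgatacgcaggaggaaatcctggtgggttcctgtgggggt
AGGAAG occurred 2 times in Emcn and once each in Rasip1 and Stab1. These letters are not in this window of Cldn5, nor in those of Lyl1 and Pdpn, which were also called lower and are not shown. AGGAAG was found in 14 of the 28 promoters (50%) and in 29.5% of all 32851. The E-box CAGNTG, searched on both strands for the Tal1 and Lyl1 family, was in 50% and 44.8%, and the GATA core GATAA in 14.3% and 22.6%. A match is a description of letters and not a bound site.

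The VEGF receptor genes Kdr and Flt1 passed the background mark on all 4 arrays and were not called. Kdr, the main signalling receptor for VEGF-A, read 3.44, 3.89, 3.95 and 4.66. The difference was 0.64 (SE 0.39, adjusted p = 0.201). After quantile normalization it was -0.16, and centred on all probes it was called higher (1.83, adjusted p = 0.00407). A second Kdr probe was not well above background on any array, so the level rests on 1 probe. Flt1, a receptor that also traps VEGF, read 1.47, 1.44, 2.51 and 2.21 (0.90, SE 0.31, adjusted p = 0.054). Its groups did not overlap, and it was called higher when centred on all probes (2.09, adjusted p = 0.0011) and with signal asked on all 4 arrays (adjusted p = 0.0272). Flt4, the receptor of lymphatic growth, was well above background on adult array 1 only (-2.93, -4.44, -5.39 and -3.96).

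In the wider VEGF system, all 7 listed ligands and co-receptors (Vegfa, Vegfb, Vegfc, Vegfd, Pgf, Nrp1 and Nrp2) were well above background on all 4 arrays. Vegfb rose (0.54, 0.24, 2.20 and 2.10; difference 1.76, SE 0.31, adjusted p = 0.0117). Of the 7, 1 rose and none fell, beside 43.8% and 2.36% of all genes well above background on all 4 arrays. Vegfa, the chief ligand of Kdr, read 1.47, 1.48, 2.15 and 3.0 and did not pass (1.10, SE 0.39, adjusted p = 0.059).

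Angpt2, the ligand that loosens vessel walls, was called higher in embryonic spheres. It read -0.27, 0.01, 0.86 and 1.93, a difference of 1.52 (SE 0.44, adjusted p = 0.0352). With the tested genes centred it was 0.86 (adjusted p = 0.205). The call was lost under 7 alternatives beside the left-out adult arrays, and without embryonic array 2 (0.99, adjusted p = 0.0748). Angpt1, the stabilising ligand made by mural and stromal cells, read -1.08, -2.06, -0.08 and -1.60, and its groups overlapped. The receptor genes Tek and Tie1 were well above background on adult array 1 alone and were not tested. Tek read -1.60, -2.85, -5.39 and -3.92, and Tie1 -2.46, -3.68, -5.40 and -4.02.

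Mural cells make Angpt1, and their 10 listed markers went both ways. Of 9 tested, 3 rose and 2 fell (Des and Acta2), beside 36.2% and 17.5% of all tested genes. The summed signal of the 10 was 43.8 and 48.2 times the 75th percentile in adult and 75.6 and 99.8 in embryonic spheres. Mcam gave the largest part of each sum. Kcnj8 and Des were dim on both embryonic arrays. The part of mural cells in the Angpt1 and Angpt2 values was not tested.

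In the apelin system, the ligand gene Apln read -0.39, -0.72, -0.57 and -1.85, with overlapping groups. Aplnr, its receptor on sprouting vessels, read 0.74 on adult array 1, -5.14 and -3.96 on the embryonic arrays, and its spot on adult array 2 was marked as an outlier. It was therefore not tested. With outlier spots kept it read 0.94 there and was called lower (-5.39, SE 0.48, adjusted p = 0.00507).

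Of the transcription factor genes, Erg, Fli1 and Tal1 were faint. Erg was not well above background on any array by either probe, and its brighter probe read -5.08, -4.21, -5.05 and -3.63, below the 95th percentile of the negative control spots. Fli1 was well above background on 1 array of each group (-1.74, -2.78, -2.24 and -1.70). Tal1, a master factor of blood and vessel formation, was dim on all 4 arrays. Lyl1, its close relative, was called lower, but passed the filter only through the adult arrays. It read 0.37, -0.13, -1.57 and -1.85, a difference of -1.83 (SE 0.34, adjusted p = 0.0127), and the call was lost after centring on all probes (-0.65, adjusted p = 0.228) and with no filter (adjusted p = 0.0527).

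Lyl1, Fli1, Tal1, Pecam1, Icam2, Vwf and Selp are also active in blood cells. Of all tested genes 17.5% fell and 36.2% rose, and the marker counts that follow can be set beside these shares. Of 9 megakaryocyte and platelet markers 7 were tested. Itga2b, Gp1ba, Gp5, Gp6 and Ppbp fell and Pf4 rose. The summed signal was 9.41 and 5.70 in adult and 5.23 and 3.26 in embryonic spheres. Gp9 was not well above background on any array, and Itga2b, Gp1ba, Gp5 and Gp6 were so on neither embryonic array. Among the erythroid markers 3 were tested. Klf1 and Gata1 fell and Epor was not called, while Alas2 and Hbb-bt were dim on all arrays. Of 8 T-cell and general haematopoietic markers, 7 were tested and Cd3g and Cd2 fell (sums 4.70 and 5.88, then 5.02 and 6.93), and Ptprc was well above background on adult array 1 only. Klf1, Gata1, Cd3g and Cd2 were well above background on neither embryonic array. Like Itga2b, Gp1ba, Gp5 and Gp6, they passed the filter only through the adult arrays. The part of blood cells in the endothelial differences was not tested.

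The selectin genes Sele and Selp, which slow leukocytes on inflamed vessels, were well above background on adult array 1 alone. Sele read -2.61, -3.24, -5.38 and -3.90, and Selp -3.0, -3.61, -3.72 and -3.71.

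Pdpn and Stab1 were the measurable genes of the lymphatic and sinusoidal group. Pdpn, a mucin of lymphatic endothelium that fibroblasts and epithelia also make, read 6.35, 6.17, 4.56 and 4.49. It was lower in embryonic spheres by a difference of -1.73 (SE 0.30, adjusted p = 0.0114), and its second probe gave -1.34. The call was lost after centring on all probes (-0.55, adjusted p = 0.308) and with no filter (adjusted p = 0.0514). Prox1, the factor that defines lymphatic endothelium, was dim on all 4 arrays (-3.35, -4.45, -5.33 and -3.93). Fibroblast markers were all 8 well above background on both adult arrays. Of these 2 rose (Pdgfra and Lum) and 1 fell (Thy1), beside 36.2% and 17.5% of all tested genes. Their sums were 404 and 403 in adult and 772 and 446 in embryonic spheres. All 7 epithelial markers were well above background on all 4 arrays. Of these 5 rose and Krt14 fell, beside 43.8% and 2.36% of all genes with that mark on all 4 arrays. Their sums were 204 and 115, then 420 and 637. Of 6 adipocyte markers 5 were tested, and Adipoq, Cfd and Plin1 fell, beside 17.5% of all tested genes. All 3 passed the filter only through the adult arrays. Lpl, not called, read 4.32, 4.39, 5.51 and 4.66 and made up most of each sum. The sums were 23.7 and 24.7, then 49.0 and 28.9, and Cidec was dim on all arrays. Their part in the Pdpn difference was not tested.

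Stab1, a scavenger receptor of sinusoids and of macrophages, was called higher in embryonic spheres. It read -1.37, -0.68, 0.49 and 0.38, a difference of 1.47 (SE 0.36, adjusted p = 0.0231), lost under 4 alternatives beside the left-out adult arrays, among them the tested genes centred (0.81, adjusted p = 0.174). Stab2, the relative confined largely to sinusoids, was well above background on adult array 1 alone (-2.34, -4.41, -4.41 and -3.83). Lyve1, a hyaluronan receptor of lymphatic vessels and macrophages, read -2.14, -2.33, -3.30 and -3.83. Among 10 macrophage markers, 5 of 8 tested rose (Csf1r, Cd68, Lyz2, Fcgr3 and C1qa) and none fell. All 8 were well above background on all 4 arrays, where 43.8% of all genes rose and 2.36% fell. Their summed signal was 12.7 and 15.0 in adult and 39.8 and 26.6 in embryonic spheres, and Mrc1 was well above background on embryonic array 1 alone. Their part in the Stab1 difference was not tested.

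A wider list of 51 vascular genes that are not among the 36 moved both ways. Of 37 tested, 6 fell and 7 rose, beside 17.5% and 36.2% of all tested genes. In the group of surface and other genes, 4 of 12 tested fell (Gja5, Robo4, Gja4 and Cd93) and 2 rose (Icam1 and Thbd). All genes of the wider list that fell, except Cd93, passed the filter only through the adult arrays. Gja5, a gap junction protein of arteries, read 0.07, -0.83, -5.37 and -3.97 and had a bound of at least 4.2-fold toward adult spheres (adjusted p = 0.00829). Robo4, a guidance receptor of endothelium, was at least 2.61-fold higher (adjusted p = 0.0109), Angpt4 at least 2.16-fold (adjusted p = 0.0121) and Sox7, an endothelial transcription factor, at least 1.88-fold (adjusted p = 0.0107). Gja4 differed by -1.79 (SE 0.47, adjusted p = 0.0265). Cd93, well above background on all 4 arrays, differed by -1.31 (SE 0.38, adjusted p = 0.0357). Beside the left-out arrays, these calls were lost under 1 alternative for Gja5, 2 for Robo4, 4 for Sox7, 5 for Angpt4, 5 for Cd93 and 6 for Gja4. The bounds belong to the scaling used, since the differences came as near to 0 as -0.99 for Gja5, -0.64 for Robo4, -0.45 for Angpt4, -0.21 for Sox7, -0.61 for Gja4 and -0.12 for Cd93.

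The genes of this wider list that rose are active in many cell types. Besides Vegfb they were Klf4 (2.25, SE 0.49) and Ets2 (2.22, SE 0.32), both transcription factors, Efnb2, an ephrin of arteries and other tissues (1.99, SE 0.42), Nr2f2, a factor of veins and mesenchyme (1.47, SE 0.31), Icam1, an inducible adhesion molecule (1.43, SE 0.31), and Thbd, which restrains clotting (1.26, SE 0.35). Their adjusted p lay between 0.00905 and 0.0299. With the tested genes centred, Klf4 (adjusted p = 0.0631), Efnb2 (0.0618), Nr2f2 (0.102), Icam1 (0.0954) and Thbd (0.60, adjusted p = 0.22) were not called, while Ets2 and Vegfb were. Beside the left-out arrays, calls were lost under 1 alternative for Vegfb, 2 each for Klf4 and Efnb2, 3 each for Nr2f2 and Icam1 and 5 for Thbd. The endothelial factor Sox18 and the surface genes Podxl, Adgrf5, Ackr1 and Mmrn1 were not well above background on any array, and Sox17 was so on adult array 1 alone.

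**Figure D3:**
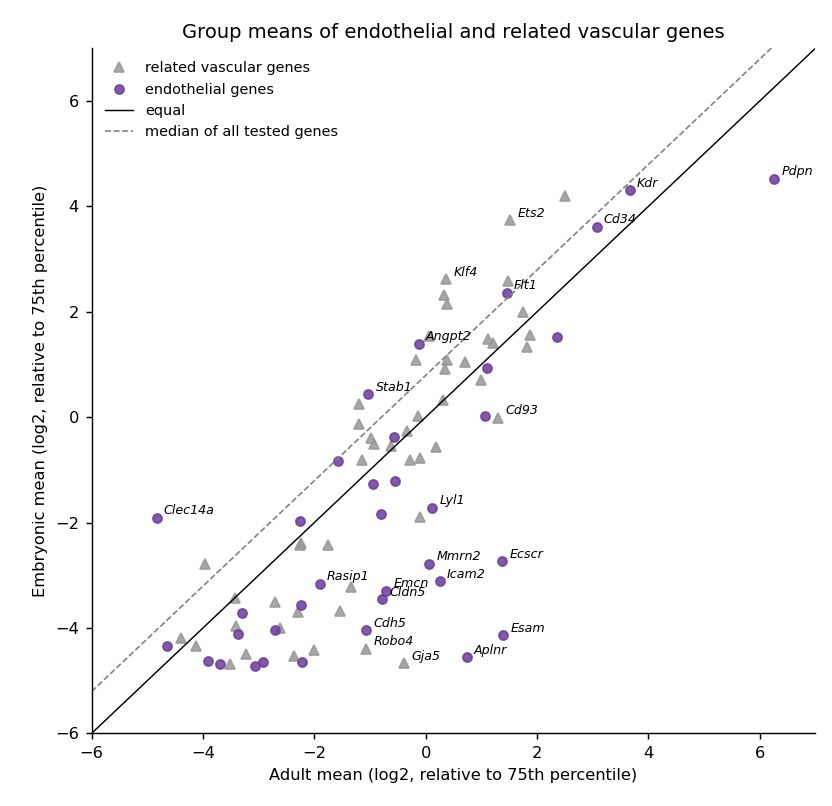
Embryonic against adult group mean (log2 relative to the 75th percentile, 2 arrays each, Aplnr with 1 adult array) for the 36 endothelial genes and 50 related vascular genes with a probe. Esam, Ecscr, Aplnr and Gja5 lie far below the line of equality, and Clec14a, Stab1 and Angpt2 above it.

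Faint signals were set against 308 negative control spots per array, all of 1 probe that matches no mouse transcript. The 95th percentile of these spots was 3.95, 3.68, 3.95 and 5.25 units of processed signal. Above it lay 34 of 36, 30 of 35, 28 of 36 and 22 of 36 endothelial genes, beside 93.4%, 81.3%, 76.8% and 69.4% of all genes. By the stricter mark of the scanner software, 32, 23, 21 and 11 were well above background. Erg lay below the 95th percentile on all 4 arrays, and Prox1 and Flt4 were above it on 1 array each. Aplnr was above it on adult array 1 and on neither embryonic array, and its spot on adult array 2 was left out as an outlier.

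Adult arrays also gave signal on probes of sensory receptor genes. Well above background were 53.0% of 1378 and 26.1% of 1299 such genes measured on the adult arrays, and 6.59% and 2.46% of 1380 on the embryonic arrays. Esam, Ecscr, Lyl1 and Pdpn were above the 95th percentile of those probes on both adult arrays, and Icam2 and Mmrn2 on adult array 2. Cdh5, Cldn5, Emcn and Rasip1 were above it on neither array. Of 330 such genes tested, 287 were called lower in embryonic spheres, 276 of them dim on both embryonic arrays. The part of this adult signal in the endothelial differences was not tested.

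**Figure D4:**
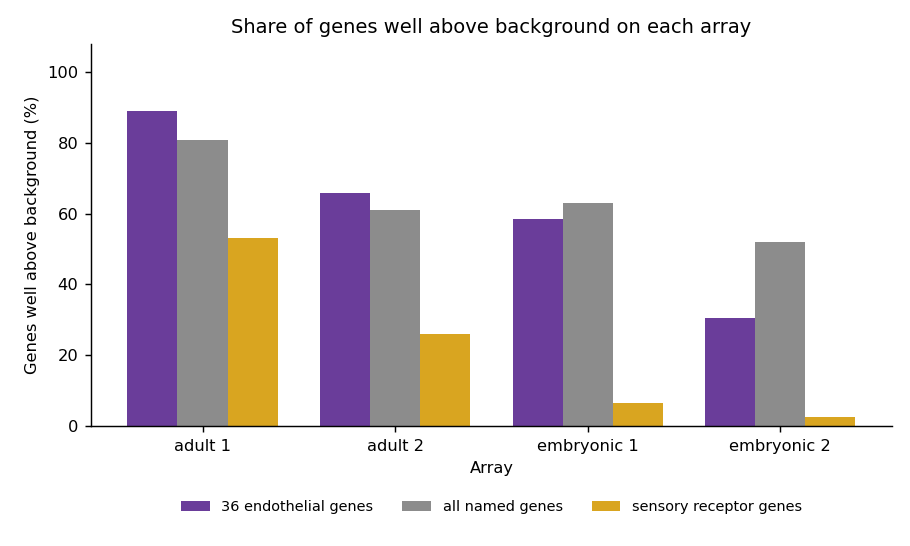
Share of genes well above background on each array (%), for the 36 endothelial genes, all named genes and the sensory receptor genes. The endothelial share was 88.9% and 65.7% for adult and 58.3% and 30.6% for embryonic spheres, and the sensory receptor share 53.0% and 26.1%, then 6.59% and 2.46%.

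**Figure D5:**
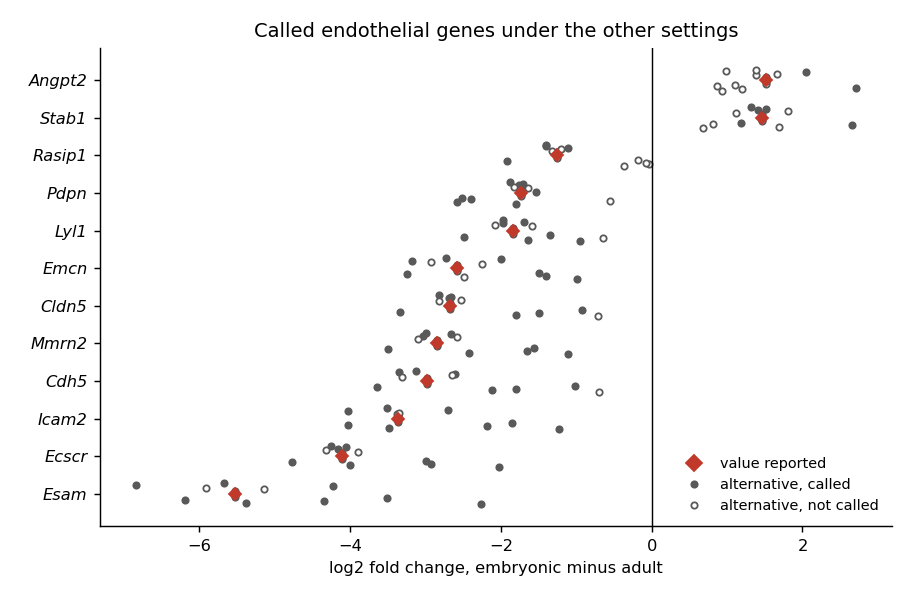
Difference of the 12 called endothelial genes (log2, embryonic minus adult) as reported (diamond) and under each alternative (circles, filled where the call held). No value crosses 0, and Esam ranges from -6.84 to -2.26.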

How the data were processed

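Each of the 4 arrays was a 1-colour Agilent array with Cy3-labelled RNA. The deposited scanner files hold intensity per spot, which per the file headers Agilent Feature Extraction (10.7.3.1) had corrected for background and a spatial trend within each array. Spots not above background carry a small positive stand-in value there. The authors' deposited value table, also intensity, has no stated processing and served as an alternative.

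Control and outlier spots were left out, log2 signals were scaled to each array's 75th percentile over all spots that are not controls, and spots of a probe were averaged. RefSeq accessions named 28026 of 55681 probes (50.3%), through GRCm38.p6 and for names only. A gene was tested if 1 group showed a probe well above background on both its arrays, and stood by its brightest such probe. All 4 arrays entered limma 3.58.1 (R 4.3.3) without covariates, with a threshold of 0.05, and the fit was tested on simulated data. Normexp used the median spot signal. Alternatives covered background, scaling, filter, probes, outlier spots, replicate block and left-out arrays. All 36 genes were named whatever their values, and of the wider list those called. 1 listed marker is not reported here. The genes and lists were chosen with earlier results of these data known.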

Additional observations from a re-analysis of the deposited data

How the results depend on the processing

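With 2 arrays a group, no gene was called in limma without adult array 1 or without adult array 2, with 6471 and 5530 genes at an unadjusted p under 0.05, among them 10 endothelial genes lower in embryonic spheres each time and 0 and 1 higher. Over the 4 left-out arrays the count of all called genes ran from 0 to 7572, that of endothelial genes called lower from 0 to 13 and higher from 0 to 2. The lone array left in a group is assumed to vary like the other group.

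In all, 7334 genes were called as reported, 3378 under normexp, 4834 under quantile normalization, 3825 with the tested genes centred, 11526 centred on the median of all probes and 2539 with no filter. The share of calls that were higher was 67.4% as reported, 75.3% under normexp, 27.4% and 85.3% under the 2 centrings, 33.6% with no filter and 94.3% with signal asked on all 4 arrays. Under these scalings and filters the 10 lower endothelial calls became 7 to 13, except with signal asked on all 4 arrays, where 11 genes were tested and 3 were called lower (Pdpn, Egfl7 and Plvap) and 3 higher (Angpt2, Stab1 and Flt1). The 2 higher calls became 0 under normexp, 0 under quantile normalization, 0 with the tested genes centred, 7 centred on all probes, 1 in the deposited table, 1 with no filter (Clec14a) and 1 with the percentile taken over spots not marked as outliers, an alternative chosen after seeing the data. With no filter 6 of the 10 lower calls remained. By the scanner's mark 11 endothelial genes counted as present on embryonic array 2, against 22 by the negative control spots.

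Genes that were not called turned sign in places, and the cause was not tested. Kdr was -0.16 under quantile normalization, -0.015 with the tested genes centred and -0.26 in the deposited table, and Cd34 -0.33, -0.11 and -0.32. Vwf was 0.19, 0.86 and 0.024 under quantile normalization, centred on all probes and in the deposited table. Centred on all probes, Apln was 0.53, Pecam1 0.16, Eng 1.03, Plvap 0.14 and Egfl7 0.36. Over the left-out arrays Angpt1 ran from -0.029 (without embryonic array 1) to 1.49. Nos3 was -0.039 under normexp, -0.46 with the tested genes centred, -0.91 over the mean of its probes, and over the left-out arrays from -0.39 to 0.79, turned without adult array 1 (-0.10) and embryonic array 2.

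With the replicate block 7042 genes, and of the endothelial genes the same 10 lower and 2 higher, were called. After scaling, the deviations of same-numbered arrays from their group means correlated at 0.07 across genes. Before scaling, the 75th percentile was 132 and 126 units on adult and embryonic array 1. It was 66.0 and 61.5 units on adult and embryonic array 2. Scaling removes such a difference in level, so the correlation cannot show whether same-numbered arrays share a batch.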
